A study of Mus musculus with 2 samples.

Results

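Noncanonical Wnt signaling was followed through 7 genes in sorted dermal cells of healing mouse skin wounds. They are 4 ligands (*Wnt5a*, *Wnt11*, *Wnt4* and *Wnt16*) and 3 receptors (*Ror1*, *Ror2* and *Ryk*). They were taken by gene symbol from the 27998 genes counted, whatever their levels, and all 7 were found. Noncanonical Wnts signal without stabilizing β-catenin. Wnt5a, the best studied of them, binds Frizzled receptors together with the co-receptors Ror1, Ror2 or Ryk, and acts through planar cell polarity proteins, small GTPases such as Rac1 and Cdc42, and calcium-dependent kinases to orient and move cells. In developing skin, *Wnt5a* is known as a gene of the hair follicle dermal condensate and a target of Hedgehog (Hh) signaling there.

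Both groups of mice carried SM22rtTA and tetO-Cre, so that doxycycline switched on Cre in cells using the promoter of *SM22α* (*Tagln*), a smooth muscle and myofibroblast gene. Control mice had the genotype SM22rtTA; tetO-Cre; R26-Tomato, in which Cre turns on only the red fluorescent protein Tomato. *SM22-SmoM2* mice had the genotype SM22rtTA; tetO-Cre; R26-SmoM2/Tomato, in which Cre also turns on SmoM2, an always active form of the Hh transducer Smoothened. The age label was 4 to 5 weeks in both groups, and doxycycline (20 g/kg) was given from day 1 after wounding until 3 days after the wound surface had closed, when the dermis was taken. Tomato+ cells from several pooled wounds made 1 library per genotype, so no p-value is given, differences between libraries include those between the animals pooled, and intervals are 95% and cover counting error only.

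After filtering, 2856 control cells remained, with a median of 8607.5 transcript molecules (unique molecular identifiers, UMIs) each, and 1792 *SM22-SmoM2* cells, with a median of 8837.5. Clusters were named from marker genes as fibroblast-like, muscle-like, endothelial-like, Schwann-like or immune-like, without "-like" from here on. All 8 fibroblast markers were detected in the fibroblasts of both libraries, at a summed 74039 counts per 1000000 UMIs (CPM) in control and 46344 in *SM22-SmoM2*. Fibroblasts numbered 1089 control cells with 14096046 UMIs and 1098 *SM22-SmoM2* cells with 12478753 UMIs. As a check of the labels, *Ptch1*, a direct Hh target, stood at 12.2 CPM in control and 147 in *SM22-SmoM2* fibroblasts, a log2 ratio of 3.59 (3.36 to 3.83). *Smo* itself, which includes any SmoM2 transcript counted at that gene, stood at 52.1 and 57.1 CPM. Of the fibroblasts whose sex could be read from their transcripts, 74.7% were male in control and 94.4% in *SM22-SmoM2*, and the part of this difference in the results was tested only by the values for male or female cells alone.

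The genes lie on the GRCm38 assembly as follows. *Wnt5a* (ENSMUSG00000021994) is at chr14:28504750-28527448 on the plus strand, where the antisense gene *Gm2670* overlaps it. *Wnt11* (ENSMUSG00000015957) is at chr7:98835112-98855195, *Wnt4* (ENSMUSG00000036856) at chr4:137277489-137299726 and *Wnt16* (ENSMUSG00000029671) at chr6:22288227-22298522, each on the plus strand. *Ror1* (ENSMUSG00000035305) is at chr4:100095791-100444765 and *Ryk* (ENSMUSG00000032547) at chr9:102834917-102908305 on the plus strand, and *Ror2* (ENSMUSG00000021464) is at chr13:53109312-53286124 on the minus strand. *Gm2670* lies on the opposite strand and was counted as a gene of its own. The strand counted is not stated, and whether any of its reads entered the *Wnt5a* count was not tested. On the same strand, *Gm47427* overlaps *Ryk* and *Gm12701* overlaps *Ror1*. On the opposite strand, the pseudogenes *Gm8398* and *Gm12706* overlap *Wnt11* and *Ror1*. These were not among the genes counted, and whether their reads entered the members' counts was not tested.

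Start-site windows, 300 bases around each annotated start, were read from RefSeq (GRCm38.p6) for 6 of the 7 genes, *Wnt5a* not among them. A Gli-type motif, GACCNCCCA or TGGGNGGTC on either strand, was in none of these windows, and 0.977% of 32851 windows of all genes held one. A TCF/LEF-type motif, ATCAAAG or CTTTGAT, was in 3.73% of all windows and in 1 of the 2 *Wnt11* windows. The windows of *Wnt16*, the member that differed most between libraries, and of *Wnt11*, the one with a motif, are shown, with the TCF/LEF-type letters in capitals. A match or its absence describes these letters only.
*Wnt11*, plus strand, chr7:98834862-98835161: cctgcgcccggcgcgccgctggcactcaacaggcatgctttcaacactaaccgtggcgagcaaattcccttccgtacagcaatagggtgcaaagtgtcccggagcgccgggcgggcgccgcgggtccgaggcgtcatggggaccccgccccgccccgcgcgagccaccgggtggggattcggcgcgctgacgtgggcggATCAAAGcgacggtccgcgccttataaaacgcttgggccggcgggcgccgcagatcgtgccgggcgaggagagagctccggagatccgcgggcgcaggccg
*Wnt16*, plus strand, chr6:22287977-22288276: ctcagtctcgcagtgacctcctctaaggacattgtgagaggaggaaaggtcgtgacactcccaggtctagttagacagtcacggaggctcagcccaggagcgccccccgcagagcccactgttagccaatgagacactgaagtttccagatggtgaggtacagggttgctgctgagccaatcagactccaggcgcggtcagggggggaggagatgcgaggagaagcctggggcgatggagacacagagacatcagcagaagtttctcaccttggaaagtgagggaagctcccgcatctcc

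The first question was which dermal lineages carried the ligands. *Wnt5a* stood at 53.8 CPM (50.1 to 57.8) in control and 55.8 (51.7 to 60.1) in *SM22-SmoM2* fibroblasts. Its summed level was higher in muscle cells, the class led by pericyte and smooth muscle genes, at 70.8 CPM (59.6 to 83.4) in control and 81.4 (60.4 to 107) in *SM22-SmoM2*. The log2 ratio of muscle over fibroblasts was 0.39 (0.13 to 0.66) in control and 0.54 (0.10 to 0.96) in *SM22-SmoM2*, and neither interval holds 0. In *SM22-SmoM2*, however, 4 of the 101 muscle cells held 22 of the 50 UMIs. There the share of cells with a *Wnt5a* UMI was not higher in muscle, at 10.9% (5.56 to 18.7) against 12.4% of fibroblasts (10.5 to 14.5) at 2500 UMIs per cell, and at 24.8% against 36.3% unthinned. Because fibroblasts were more numerous and deeper, they still held 759 of 1011 control *Wnt5a* UMIs and 696 of 781 in *SM22-SmoM2*.

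*Wnt5a* was low elsewhere, in endothelial cells at 8.66 (control) and 6.53 CPM (*SM22-SmoM2*) and in Schwann cells at 5.93 and 7.93 CPM. With every cell thinned to 2500 UMIs, 12.1% of control fibroblasts (10.2 to 14.2) held a *Wnt5a* UMI, against 0.433% of endothelial cells (0.0894 to 1.26). Unthinned, the share of fibroblasts was 39.2% at a median depth of 12471 UMIs, and that of endothelial cells was 5.19% at 9413 UMIs. The endothelial UMIs sat in few cells, since 36 of 693 control cells held all 70 of them and 6 cells held 36. In those 36 cells the 7 muscle markers summed to 2893 CPM, against 503 CPM in the other 657, and the 8 fibroblast markers to 3846 against 1509 CPM. The same was seen in the 14 control Schwann cells with *Wnt5a*, where muscle markers summed to 2077 CPM against 83.2 CPM in the other 664. The cells with *Wnt5a* were also deeper, at a median of 17891.5 against 9131 UMIs in endothelial and 13172 against 5897.5 UMIs in Schwann cells. The part of such double-marked cells and of depth in the low *Wnt5a* level of these lineages was not tested.

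Collagen transcripts gave a reference for fibroblast RNA carried into other droplets. Per 10000 UMIs of *Col1a1* and *Col1a2*, control fibroblasts held 13.3 *Wnt5a* UMIs (12.4 to 14.3), Schwann cells 10.4 (6.88 to 14.96), endothelial cells 104 (81.2 to 132) and muscle cells 200.4 (169 to 236). In *SM22-SmoM2* endothelial cells it was 78.8 (44.1 to 130). The interval of the Schwann cells includes the fibroblast ratio, and those of the endothelial and muscle cells lie above it. At that ratio, the collagen UMIs of control Schwann cells correspond to 36.1 *Wnt5a*, 13.3 *Wnt16*, 12.7 *Ror2* and 38.3 *Ryk* UMIs. Those cells held 28, 0, 3 and 127, so the reference did not hold across members in this class. The part of carried-over RNA in their *Wnt5a* was not tested.

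*Wnt11*, a ligand known for cell movements in gastrulation and for kidney branching, was scarce. Fibroblasts had 44 UMIs (3.12 CPM, 2.27 to 4.19) in control and 40 UMIs (3.21 CPM, 2.29 to 4.36) in *SM22-SmoM2*. No *Wnt11* UMI was found among 282 control and 101 *SM22-SmoM2* muscle cells, which allows up to 1.496 and 4.88 CPM at a limit of 3 UMIs. Immune cells had 8 UMIs in 6 of 82 control cells (11.4 CPM, 4.93 to 22.5) and 2 UMIs in 33 *SM22-SmoM2* cells. At the fibroblast ratio of *Wnt11* to collagen, the collagen UMIs of the control immune cells correspond to 0.143 *Wnt11* UMIs, and the part of carried-over RNA in the 8 was not tested.

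*Wnt4*, which signals through either branch and is known in the epidermis, the kidney and the gonad, was spread across classes. It stood at 6.74 CPM (5.45 to 8.24) in control and 6.65 (5.30 to 8.25) in *SM22-SmoM2* fibroblasts, and at 5.81 CPM (4.27 to 7.73) and 8.70 CPM (5.32 to 13.4) in endothelial cells. The intervals of the 2 classes overlap in each library.

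*Wnt16*, a ligand best known from bone and joint tissue, was almost confined to fibroblasts in control. Of its 284 control UMIs, 279 were in fibroblasts (98.2%, 95.9 to 99.4), 2 in endothelial cells and 3 in a mixed group of 17 cells. No UMI was found in 282 muscle or 678 Schwann cells, so the fibroblast level of 19.8 CPM was at least 13.2-fold and at least 31.2-fold higher than theirs, against a limit of 3 UMIs per class. In *SM22-SmoM2*, 58 of 60 UMIs were in fibroblasts and 2 in an immune cell.

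Among the receptors, *Ryk*, a Wnt receptor with an inactive kinase domain, was broad. It stood at 57.2 CPM (53.3 to 61.3) in control fibroblasts, 50.4 CPM (41.0 to 61.2) in muscle, 28.1 CPM (24.5 to 32.0) in endothelial, 26.9 CPM (22.4 to 32.0) in Schwann and 8.57 CPM (3.14 to 18.6) in immune cells. Fibroblasts and muscle did not differ beyond counting error, nor did endothelial and Schwann cells, and the first pair lay above the second. *Ror2*, a receptor tyrosine kinase of the Wnt5a pathway needed for limb and cartilage growth, was a fibroblast gene, at 19.0 CPM (16.8 to 21.4) against 9.47 CPM (5.70 to 14.8) in muscle, 1.48 CPM (0.767 to 2.59) in endothelial and 0.635 CPM (0.131 to 1.86) in Schwann cells. Its close relative *Ror1* was highest by value in muscle, at 10.97 CPM (6.87 to 16.6), with 6.95 CPM (5.64 to 8.47) in control fibroblasts, and these intervals overlap. *Ror1* was under 1.1 CPM in control endothelial and Schwann cells, and no UMI of it was seen in 82 immune cells.

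**Figure D1:**
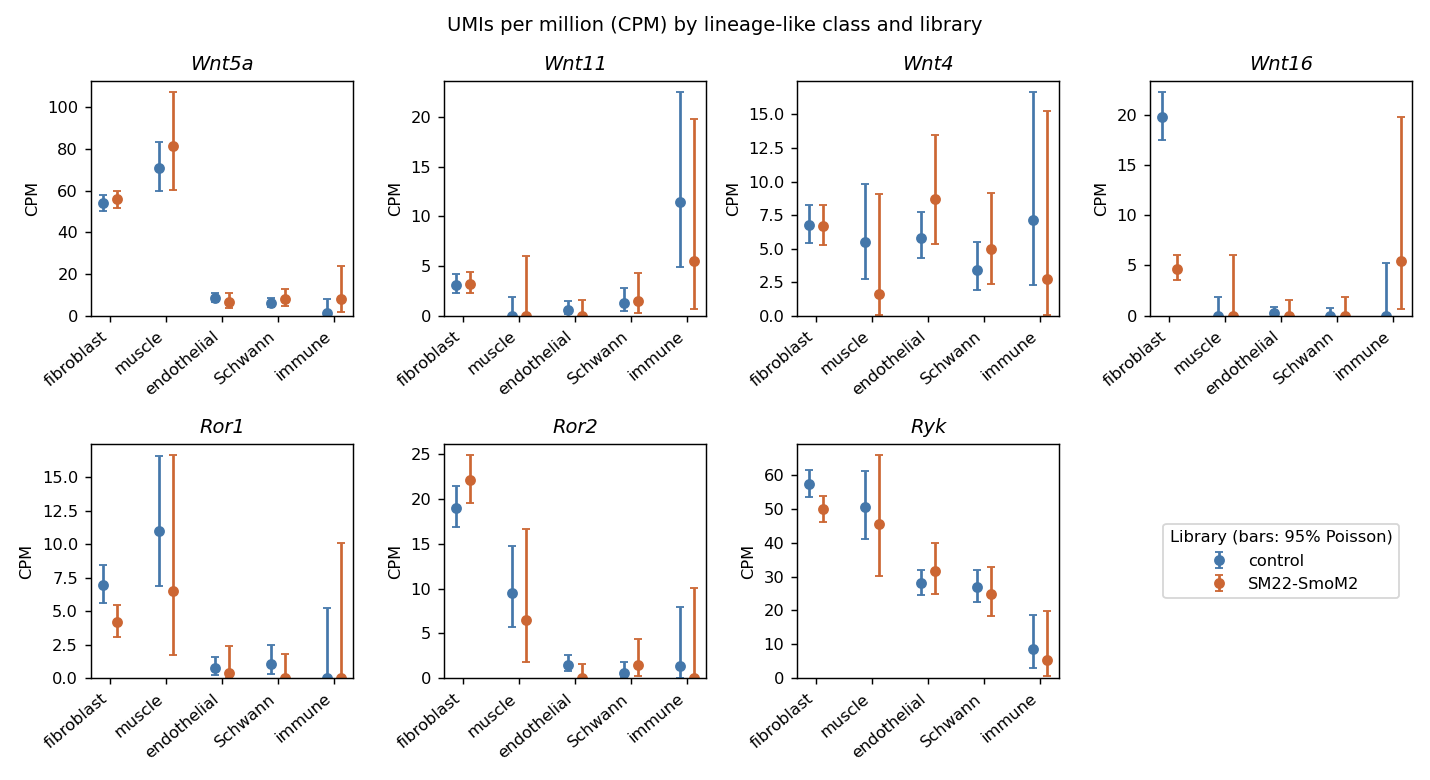
Level of each gene (CPM) in 5 classes of cells in the control and *SM22-SmoM2* libraries, with 95% Poisson intervals as bars and a scale of its own in each panel. *Wnt5a* is high in fibroblasts and muscle cells of both libraries, *Wnt16* is at 19.8 CPM in control and 4.65 in *SM22-SmoM2* fibroblasts, and *Ror2* is highest in fibroblasts.

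The second question was how the 7 genes differed in fibroblasts between the library with forced Hh signaling and the control library. *Wnt16* was the one member past a 2-fold difference. It had 279 UMIs in control (19.8 CPM, 17.5 to 22.3) and 58 UMIs in *SM22-SmoM2* fibroblasts (4.65 CPM, 3.53 to 6.01), a log2 ratio of -2.09 (-2.52 to -1.68), or 4.26-fold lower. That is 1 of 7 members, where 9.92% of the 11520 genes with at least 50 UMIs passed 2-fold in either direction, 5.03% upward and 4.9% downward, so the count is near that of genes at large. In 2500 UMIs per cell, 4.13% of control fibroblasts (3.03 to 5.49) and 1.09% of *SM22-SmoM2* fibroblasts (0.566 to 1.90) held a *Wnt16* UMI. Unthinned, these shares were 14.8% and 4.01%.

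*Wnt5a* had a log2 ratio of 0.05 (-0.10 to 0.20), an interval that holds no change and excludes a difference of 1.5-fold either way. *Wnt11* had 0.04 (-0.62 to 0.69) and *Wnt4* -0.02 (-0.46 to 0.42), and both intervals exclude a 2-fold difference. Of the receptors, *Ror1* went from 6.95 CPM in control to 4.17 CPM in *SM22-SmoM2*, a log2 ratio of -0.74 (-1.25 to -0.24). *Ryk* went from 57.2 to 49.8 CPM, a log2 ratio of -0.20 (-0.35 to -0.05), and *Ror2* from 19.0 to 22.1 CPM, a log2 ratio of 0.22 (-0.03 to 0.47). The median over all genes tested was -0.06. When the comparison was kept to the 4 sub-clusters in which each library had 50 cells or more, *Ror1* stood at 0.023 (-0.80 to 0.81) and *Ryk* at 0.026 (-0.18 to 0.23), while *Wnt16* stood at -1.23 (-1.94 to -0.58).

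**Figure D2:**
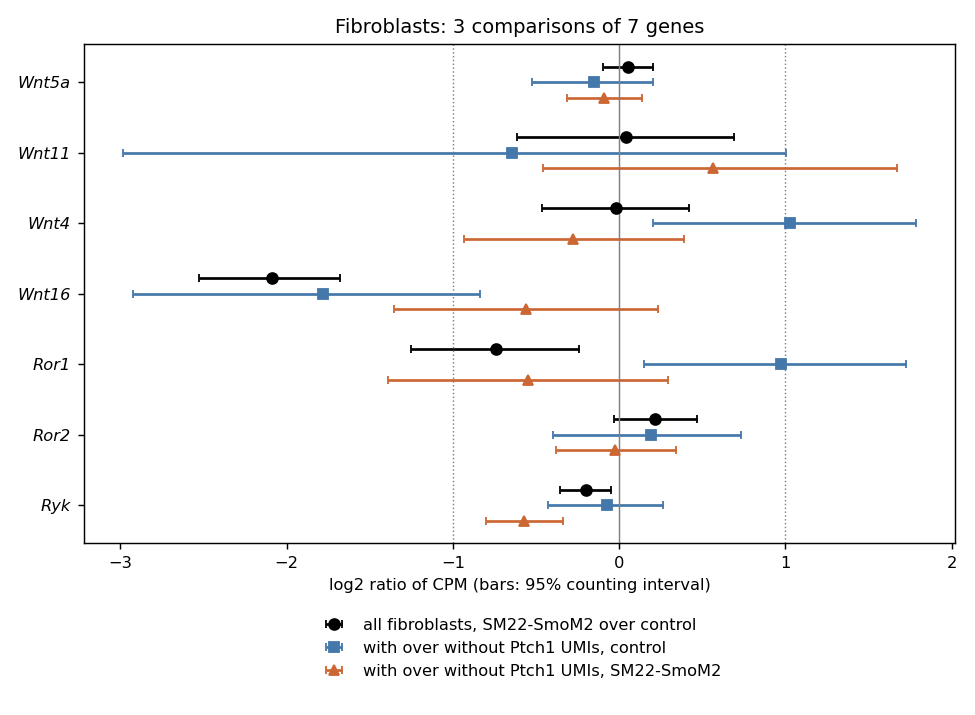
Log2 ratios of CPM for the 7 genes in fibroblasts, with 95% counting intervals, for *SM22-SmoM2* over control and for cells with over cells without a *Ptch1* UMI in each library. Dotted lines mark 2-fold either way, and *Wnt16* at -2.09 is the one gene past it between libraries.

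Muscle cells express the driver's promoter most, with *Tagln* at 1355 CPM in the control library. It was lower in *SM22-SmoM2* muscle, at 749 CPM. *Ptch1* had 17 UMIs there, in 7 of 101 cells (27.7 CPM), against 147 CPM in fibroblasts of that library. Of these 17 UMIs, 1 cell held 8. Control muscle had *Ptch1* at 7.98 CPM, so the log2 ratio was 1.79 (0.72 to 2.87), and it was not taken without that cell. How many muscle cells responded to forced Hh signaling was not tested. In muscle cells *Wnt5a* had a log2 ratio of 0.20 (-0.29 to 0.68) between libraries and *Ryk* -0.14 (-0.80 to 0.47). Both were under 2-fold, which 4.05% of 6128 genes passed there, 0.995% upward and 3.05% downward. In endothelial cells *Ryk* had 0.18 (-0.22 to 0.56) and in Schwann cells -0.12 (-0.62 to 0.37), so no member differed between libraries beyond counting error in these 3 lineages where both libraries had UMIs of it.

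Fibroblasts were then split by *Ptch1* as a sign of the Hh response of each cell. In the *SM22-SmoM2* library 640 fibroblasts had at least 1 *Ptch1* UMI (median depth 11298 UMIs) and 458 had none (10218 UMIs). A cell without one may still express the gene. *Gli1*, another Hh target, stood at 43.7 CPM in the first and 16.5 CPM in the second group.

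*Ryk* was the member that differed. It stood at 41.9 CPM (37.4 to 46.7) in *SM22-SmoM2* fibroblasts with *Ptch1* and 62.2 CPM (55.4 to 69.7) in those without, a log2 ratio of -0.57 (-0.80 to -0.34), or 1.49-fold lower. By steps of 0, 1, 2 to 3 and 4 or more *Ptch1* UMIs, its level was 62.2, 47.2, 38.1 and 41.5 CPM. *Ryk* also differed between the fibroblast sub-clusters described below, and the part of that in the *Ptch1* ratio was not tested. *Wnt5a* stood at 54.4 CPM with and 57.9 CPM without *Ptch1*, a log2 ratio of -0.09 (-0.31 to 0.13). *Ror2* had -0.02 (-0.38 to 0.34), *Wnt4* -0.28 (-0.93 to 0.39), *Ror1* -0.55 (-1.39 to 0.30), *Wnt16* -0.56 (-1.35 to 0.24) and *Wnt11* 0.56 (-0.46 to 1.67). None of the 6 members with 50 UMIs passed 2-fold, against 5.49% of 10042 genes, 3.5% upward and 1.99% downward. With every cell thinned to 2500 UMIs *Ryk* did pass it, at -1.22 (-1.75 to -0.70), with a UMI in 7.5% of cells with *Ptch1* (5.58 to 9.82) against 16.6% without (13.3 to 20.3). The thinning was 1 random draw, and as a mean of per-cell CPM the *Ryk* ratio, given with the processing below, stayed under 2-fold. Thinned, *Ror1* had -1.90 (-4.45 to 0.16) and *Wnt16* -1.65 (-3.80 to 0.19), from 3 and 4 UMIs with *Ptch1*. The median of those genes was 0.13.

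The dose steps for *Wnt5a* did not run one way, at 57.9, 42.8, 50.2 and 70.8 CPM. Cells with 4 or more *Ptch1* UMIs were above cells with none, with a log2 ratio of 0.29 (0.01 to 0.57), and without the dermal papilla-like cells described next this was 0.06 (-0.26 to 0.37). No member passed 2-fold here among those with 50 UMIs, against 7.53% of 8697 genes, 4.52% upward and 3.01% downward. Cells with 4 or more were also deeper, with a median depth of 13713.

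In the control library, 108 fibroblasts had a *Ptch1* UMI (median depth 12888 UMIs) and 981 had none (12459 UMIs). *Wnt16* had 9 UMIs with *Ptch1* (6.21 CPM, 2.84 to 11.8) and 270 without (21.3 CPM, 18.9 to 24.1), a log2 ratio of -1.78 (-2.93 to -0.83). All 9 were in cells with 1 *Ptch1* UMI, and neither the 30 cells with 2 to 3 nor the 7 with 4 or more held any. Of the 279 control UMIs, 147 lay in the sub-cluster led by *Stmn4*, described below, which had the lowest Hh gene level (6.84 CPM). The part of sub-clusters in the *Wnt16* ratio was not tested. *Wnt4* had 18 UMIs (12.4 CPM, 7.36 to 19.6) with and 77 (6.09 CPM, 4.80 to 7.61) without, a log2 ratio of 1.03 (0.20 to 1.78), and *Ror1* also had 18 UMIs with *Ptch1* and a log2 ratio of 0.97 (0.15 to 1.72). *Wnt5a*, *Ror2* and *Ryk* had intervals that hold 0. Of the 6 members with 50 UMIs, *Wnt16* passed 2-fold downward and *Wnt4* upward, where 6.22% of 10255 genes passed it, 3.62% downward and 2.6% upward. For *Wnt4* the ratio was 0.71 (-0.26 to 1.58) with no mitochondrial filter, 0.78 (-0.12 to 1.59) with Leiden clustering and 0.30 (-2.002 to 1.89) with *Ptch1* read at 2500 UMIs, all under 2-fold. The male cells alone gave 0.18 (-1.33 to 1.40) and the female cells alone 2.47 (1.08 to 3.85), from 6 and 10 UMIs with *Ptch1*.

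Among fibroblasts without *Ptch1*, *Wnt16* was again lower in *SM22-SmoM2*, at 5.79 against 21.3 CPM, a log2 ratio of -1.88 (-2.50 to -1.32). It was 1 of 7 members past 2-fold there, with 8.04% of 10653 genes past it, 3.21% upward and 4.83% downward. Among fibroblasts with *Ptch1*, *Ror1* stood at 3.53 CPM (27 UMIs) in *SM22-SmoM2* and 12.4 CPM (18 UMIs) in control, a log2 ratio of -1.81 (-2.73 to -0.87). *Wnt4* stood at 6.15 CPM (47 UMIs) and 12.4 CPM (18 UMIs), a log2 ratio of -1.01 (-1.83 to -0.14). Its 18 control UMIs are those whose ratio differed between male and female cells above, and this comparison was not taken by sex. *Ror1* had too few UMIs here to be counted as past 2-fold. Among the members with enough UMIs, only *Wnt4* passed it, downward. In these cells 11.1% of 9482 genes passed 2-fold, 6.73% upward and 4.41% downward.

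**Figure D3:**
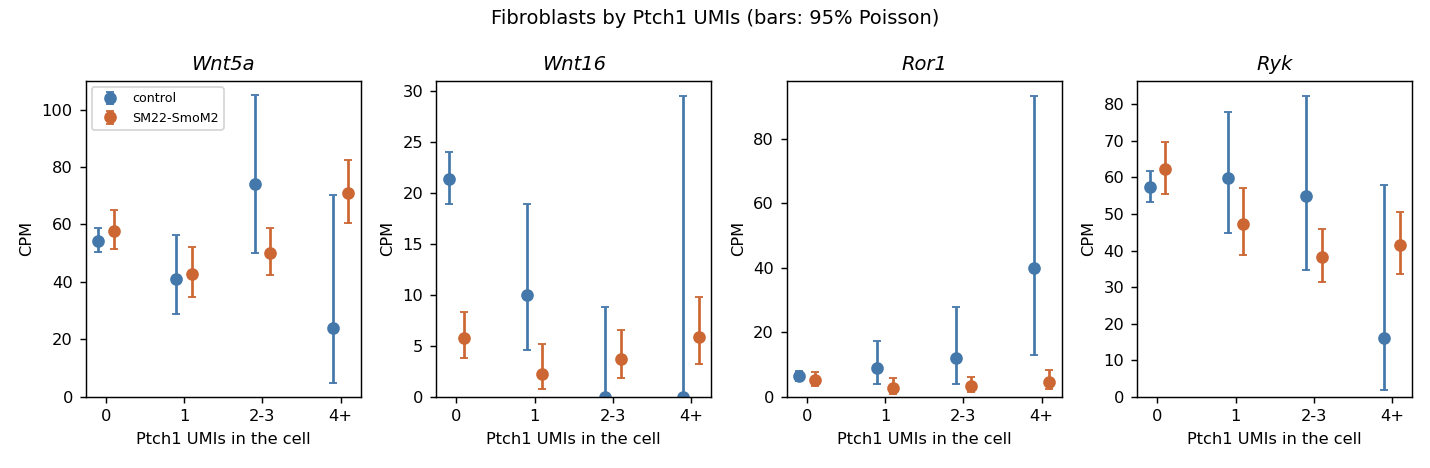
Level (CPM) of *Wnt5a*, *Wnt16*, *Ror1* and *Ryk* in fibroblasts grouped by the number of *Ptch1* UMIs in the cell (0, 1, 2 to 3, 4 or more), with 95% Poisson intervals, in both libraries. *Ryk* in *SM22-SmoM2* is 62.2 CPM at 0 and 41.5 CPM at 4 or more, and control *Wnt16* is 21.3 CPM at 0; the control groups with 2 to 3 and 4 or more hold 30 and 7 cells.

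Fibroblasts were also grouped into sub-clusters by other genes, with the 7 members, their pathway and the Hh genes kept out of the grouping. Taken per library, 18 groups had at least 30 cells. One group, 46 *SM22-SmoM2* cells and no control cell, had all 12 markers of the dermal papilla, the signaling center at the base of the hair follicle, raised over the other sub-clusters. The name also needed at least 3 of 5 Hh genes to be raised. Its median depth was 4530.5 UMIs, its 8 fibroblast markers summed to 9825 CPM and its 7 muscle markers to 386 CPM, with 1 of these at 0. The fibroblast markers summed to 46344 CPM over all *SM22-SmoM2* fibroblasts, and to 8410 and 7106 CPM in the Schwann and muscle cells of that library.

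In these dermal papilla-like cells *Wnt5a* had 94 UMIs, or 300.2 CPM (243 to 367), against 49.5 CPM (45.6 to 53.6) in the other *SM22-SmoM2* fibroblasts, a log2 ratio of 2.60 (2.27 to 2.92), or 6.07-fold. *Wnt16* had 15 UMIs, or 47.9 CPM (26.8 to 79.0), against 3.53 CPM (2.56 to 4.76), a log2 ratio of 3.76 (2.81 to 4.64). *Wnt11* had 7 UMIs in 7 cells, or 22.4 CPM (8.99 to 46.1), against 2.71 CPM (1.87 to 3.81), a log2 ratio of 3.04 (1.62 to 4.24). Each of these 3 ligands was thus higher in this small group than in the other *SM22-SmoM2* fibroblasts. Over control fibroblasts the log2 ratios were 2.48 (2.15 to 2.79) for *Wnt5a*, 2.84 (1.44 to 4.003) for *Wnt11* and 1.28 (0.42 to 2.02) for *Wnt16*. The *Wnt16* interval overlaps that of control cells led by *Stmn4* (30.3 to 42.2 CPM). The *Wnt11* interval overlaps that of *SM22-SmoM2* cells led by *Egfl6* (6.43 to 17.7 CPM). The receptors were not higher than in the other *SM22-SmoM2* fibroblasts. *Ror2* had 22.4 against 22.1 CPM, *Ryk* had 25.6 against 50.4 CPM, a log2 ratio of -0.98 (-2.20 to 0.01), and *Ror1* had no UMI, which allows up to 9.58 CPM. In a group this small, 31.2% of 10042 genes passed 2-fold, 21.5% upward and 9.68% downward, and the share of that due to counting error was not separated. Of the 6 members with 50 UMIs over *SM22-SmoM2* fibroblasts, *Wnt5a* and *Wnt16* passed it upward, so the count is near that of genes at large. The median log2 ratio was 0.29 over the 9673 of these genes with UMIs in both groups.

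Without the dermal papilla-like cells, *Wnt5a* in *SM22-SmoM2* over control fibroblasts had a log2 ratio of -0.12 (-0.28 to 0.03) and *Wnt16* -2.49 (-2.98 to -2.02). The similar *Wnt5a* totals of the libraries therefore included 94 UMIs of 46 cells with no counterpart in control.

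Outside that group *Wnt5a* ranged from 20.6 CPM in the 61 control cells led by *Cst6* and *Gcg* to 100.7 CPM (89.8 to 112) in the 253 control cells led by *Crabp1*, *Prss35* and *Mmp11*. The 76 *SM22-SmoM2* cells of the latter sub-cluster had 80.3 CPM (62.4 to 102), and the intervals overlap. This sub-cluster alone held 315 of the 759 control fibroblast UMIs of *Wnt5a*. Its summed level of 5 Hh genes was 9.27 CPM in control and 20.1 in *SM22-SmoM2*, the third and the fifth lowest of the 18 groups. In the 213 *SM22-SmoM2* cells led by *Sfrp5* and *Cldn1*, with the Hh genes at 475 CPM, *Wnt5a* was at 58.0 CPM, and in the 157 cells led by *Egfl6* and *Fam212a*, with the Hh genes at 261 CPM, it was at 26.6 CPM. High *Wnt5a* was thus found at both ends of the Hh gene level.

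*Wnt11* had its control UMIs in the 268 cells led by *Stmn4*, *Wnt2* and *Nov*, with 32 of 44 (7.81 CPM, 5.34 to 11.03). The *SM22-SmoM2* library held 3 cells of this sub-cluster. There *Wnt11* sat in the cells led by *Egfl6* and *Fam212a*, with 17 of 40 UMIs (11.03 CPM, 6.43 to 17.7), in those led by *Areg* and *Srxn1*, with 11 UMIs (4.57 CPM, 2.28 to 8.18), and in the dermal papilla-like cells. The total was thus alike between libraries while the cells that held it were not. With the *Stmn4* sub-cluster left out, *Wnt11* had 12 UMIs in control and 40 in *SM22-SmoM2*, a log2 ratio of 1.42 (0.46 to 2.49), a direction that leaving out most of the control UMIs sets. In the 4 shared sub-clusters it ran the other way, at -1.28 (-4.53 to 0.99) from 9 control and 2 *SM22-SmoM2* UMIs. The median over the 18 groups was 0.827 CPM, with 5 at 0.

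*Wnt16* was highest in control in the same *Stmn4* sub-cluster, with 147 of 279 UMIs (35.9 CPM, 30.3 to 42.2), followed by the 79 cells led by *Angptl1* and *Agtr2* (33.4 CPM, 22.03 to 48.6) and the 56 cycling cells (27.3 CPM, 18.3 to 39.3). These intervals overlap. The *Angptl1* sub-cluster had no *SM22-SmoM2* cell. In the 4 sub-clusters shared by the libraries (50 or more cells in each), *Wnt16* was lower by value in *SM22-SmoM2* in each. The cycling cells had 29 UMIs in control and 1 UMI in 68 *SM22-SmoM2* cells, a log2 ratio of -4.66 (-10.01 to -2.07). The *Crabp1* cells had 17 and 1 UMIs, the *Tnn* and *Spp1* cells 9 and 3, and the *Ctla2a* and *Wisp2* cells 49 and 19 UMIs (19.9 and 15.6 CPM), with intervals of the ratio that hold 0 in these 3. Without the *Stmn4* sub-cluster *Wnt16* had a log2 ratio of -1.53 (-2.003 to -1.07) between libraries.

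*Wnt4* was highest in the *Tnn* and *Spp1* cells, at 16.5 CPM (9.77 to 26.04) in control and 13.3 (7.62 to 21.7) in *SM22-SmoM2*. It was lowest by value in the *Ctla2a* cells, at 0.814 CPM (0.099 to 2.94, from 2 UMIs) in control and 0.820 (0.021 to 4.57, from 1 UMI) in *SM22-SmoM2*. These low intervals overlap those of other groups, such as the control cycling cells (0.943 CPM, 0.024 to 5.25). *Ror1* was highest in 2 control groups with raised Hh genes, those led by *Sfrp5* and *Cldn1* (22.8 CPM, 9.83 to 44.9, from 8 UMIs) and by *Cst6* and *Gcg* (19.1 CPM, 10.2 to 32.7, from 13 UMIs). In the *SM22-SmoM2* cells led by *Sfrp5* it was 3.22 CPM (1.39 to 6.35), and these intervals do not overlap. In the *Crabp1* cells it ran the other way, with 2.56 CPM in control and 10.6 in *SM22-SmoM2*, a log2 ratio of 2.06 (0.51 to 3.63) from 8 and 9 UMIs.

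*Ror2* was even across groups, with a median of 22.5 CPM and a highest level of 29.2 CPM, in the *Egfl6* cells. It was lower in the *Angptl1* cells (7.43 CPM, 2.73 to 16.2) and the *Areg* cells (11.6 CPM, 7.73 to 16.8), and the 35 control cells led by *C4b* and *Mlana* had no UMI. *Ryk* ranged from 25.6 to 84.7 CPM, highest in the control *Crabp1* cells (74.8 to 95.5), where *Wnt5a* was also high. In the 4 shared sub-clusters its log2 ratio between libraries lay between -0.08 and 0.22, and the intervals all hold 0. Within *SM22-SmoM2*, *Ryk* stood at 80.3, 61.5 and 74.2 CPM in the *Crabp1*, *Ctla2a* and *Tnn* cells, with the Hh genes at 20.1 to 55.8 CPM. It stood at 38.3, 41.5, 31.8 and 48.0 CPM in the *Sfrp5*, *Areg*, *Tnmd* and *Egfl6* cells, with the Hh genes at 223 to 475 CPM. The cycling cells, with the Hh genes at 258 CPM, had 68.1 CPM. In control, *Ryk* stood at 84.7, 52.9 and 71.4 CPM in the *Crabp1*, *Ctla2a* and *Tnn* cells. It stood at 45.2, 37.1 and 44.8 CPM in the *Stmn4*, *Angptl1* and *C4b* cells. All of these control groups had the Hh genes at 6.84 to 56.0 CPM. The control *Cst6* and *Sfrp5* cells, with the Hh genes at 94.0 and 225 CPM, had 38.2 and 28.5 CPM. The control cycling cells, with the Hh genes at 8.49 CPM, had 58.5 CPM.

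**Figure D4:**
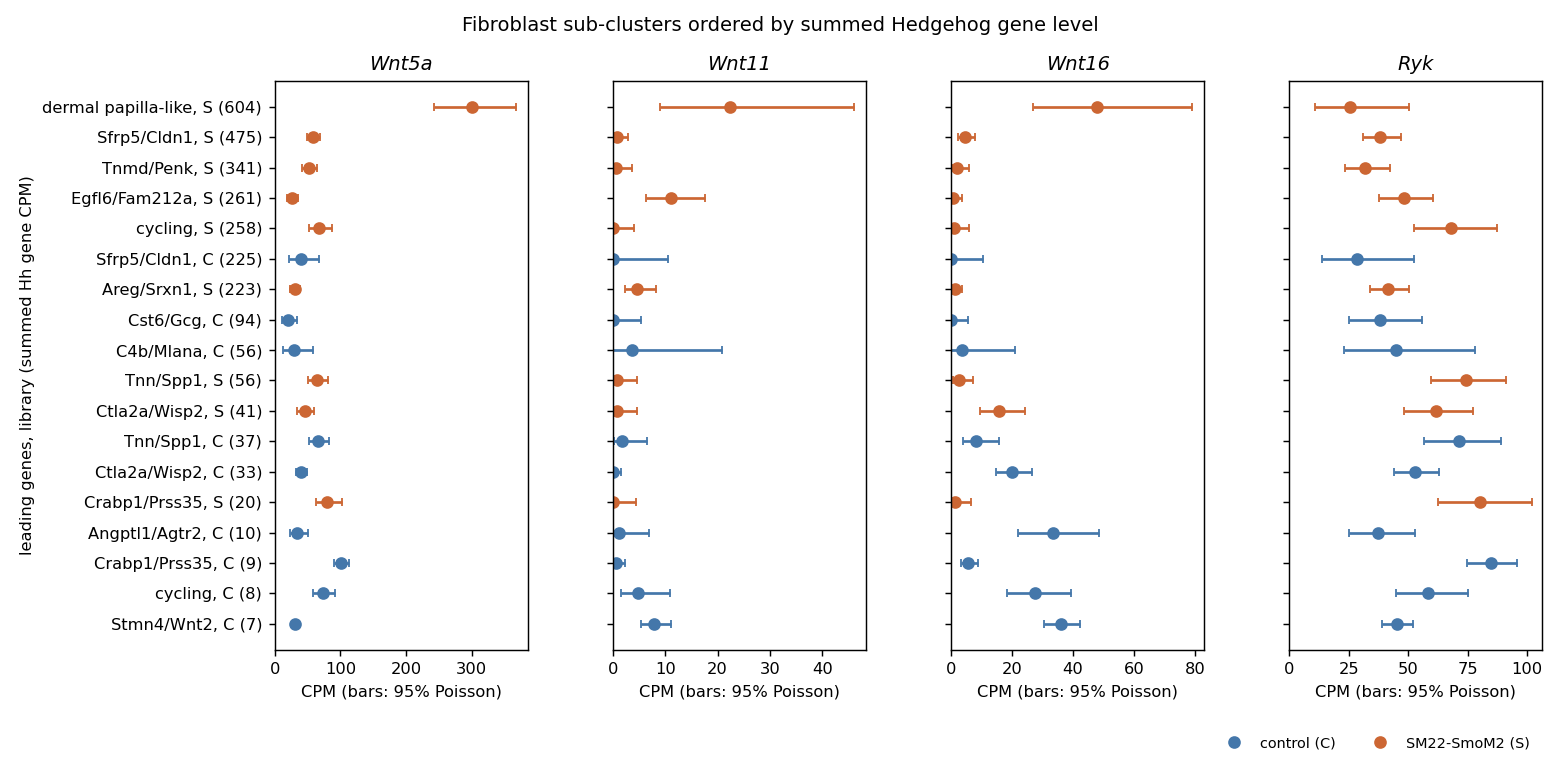
Level (CPM) of *Wnt5a*, *Wnt11*, *Wnt16* and *Ryk* in 18 fibroblast groups, named by 2 leading genes, with 95% Poisson intervals. Groups are ordered by the summed CPM of 5 Hh genes, printed in brackets, with C for control and S for *SM22-SmoM2*. The dermal papilla-like cells at the top have the highest *Wnt5a* (300.2 CPM). They are highest by value in *Wnt11* and *Wnt16*, with intervals that overlap those of other groups.

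Across the 18 groups, the genes whose log2(CPM + 10) ran most like *Wnt5a*, of 5496 genes with at least 500 UMIs, were *Asph* (Pearson r 0.91), *Twist1* (0.84), *Zfp503* (0.82), *Mib1* (0.81) and *Nisch* (0.81). For *Wnt11* they were *Cebpg* (0.88), *Rnf19a* (0.86), *Cry1* (0.86), *Ing3* (0.85) and *Rora* (0.85). Without the dermal papilla-like cells these fell to between 0.63 and 0.79 for *Wnt5a* and to between 0.70 and 0.85 for *Wnt11*. The groups share 2 libraries and differ in depth, so these are descriptions. *Wnt11* itself had only 44 control and 40 *SM22-SmoM2* fibroblast UMIs, under the 500 asked of the compared genes. Its median over the 18 groups was 0.827 CPM, with 5 groups at 0, so its correlations rest on few groups.

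The pathway around the members was counted in fibroblasts from 7 lists of genes with at least 50 UMIs. Each count is to be read against the 5.03% of all 11520 genes past 2-fold upward and the 4.9% downward. Of 8 Frizzled receptors, 1 passed 2-fold upward and none downward, with a median log2 ratio of 0.16, against 5.03% and 4.9% of all genes, so the count is near that of genes at large. That one was *Fzd5*, at 1.70 CPM in control and 6.89 in *SM22-SmoM2*, a log2 ratio of 2.02 (1.35 to 2.73). The most abundant were *Fzd2*, a Wnt5a receptor, at 67.9 and 127 CPM (log2 ratio 0.91, 0.79 to 1.03), and *Fzd1*, at 94.4 and 93.9 CPM. *Fzd3* and *Fzd7* had log2 ratios of 0.32 (-0.12 to 0.76) and 0.77 (0.33 to 1.22). Within *SM22-SmoM2* fibroblasts *Fzd2* was also higher in cells with *Ptch1*, at 145 against 99.1 CPM, a log2 ratio of 0.55 (0.40 to 0.71). Outside fibroblasts *Fzd2* was also higher by value in *SM22-SmoM2* than in control. In endothelial cells it went from 5.07 CPM (3.64 to 6.88) to 15.7 (10.97 to 21.7). In Schwann cells it went from 12.1 CPM (9.14 to 15.6) to 27.7 (20.96 to 36.03). Muscle cells had 11.97 and 27.7 CPM, with intervals that overlap, and immune cells 5.71 and 30.1 CPM, from 4 and 11 UMIs. The part of Hh signaling in the *Fzd2* difference between libraries was not tested.

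None of 7 planar cell polarity genes passed 2-fold, with a median of 0.01. *Ptk7*, a transmembrane co-receptor of this pathway, was the most abundant, at 108 CPM in control and 101 in *SM22-SmoM2*. *Prickle1* had a log2 ratio of 0.42 (0.14 to 0.70) and *Vangl1* 0.01 (-0.31 to 0.33). Like *Ryk*, *Ptk7* was lower in *SM22-SmoM2* cells with *Ptch1*, at 79.9 against 135 CPM without, a log2 ratio of -0.76 (-0.92 to -0.60).

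Of 12 effectors, 1 passed 2-fold downward, *Daam1*, a formin that binds Dishevelled, at 18.5 CPM in control and 8.41 in *SM22-SmoM2*, a log2 ratio of -1.14 (-1.48 to -0.81), where 4.9% of all genes passed downward. The list's median was -0.25, and the GTPase genes *Cdc42* and *Rac1* had -0.41 and -0.33. None of 8 genes of the calcium branch passed, with a median of 0.07. Its most abundant genes, *Camk2d*, *Nfatc4* and *Prkca*, had log2 ratios of 0.16, 0.24 and -0.36.

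Wnt release had 2 genes with 50 UMIs and none passed. *Wls*, the carrier that brings Wnts to the cell surface, went from 326 CPM in control to 190 CPM in *SM22-SmoM2*, a log2 ratio of -0.78 (-0.85 to -0.71), and *Porcn*, which lipidates Wnts, from 10.1 to 10.98 CPM. *Notum*, a Wnt deacylase, had 11 and 36 UMIs. Of 5 other Wnt ligands, 1 passed downward (4.9% of all genes did), *Wnt2*, at 91.5 and 13.9 CPM (-2.72, -2.96 to -2.49), and the next most abundant, *Wnt9a* and *Wnt5b*, had -0.52 and 0.92. *Wnt2* leads the *Stmn4* sub-cluster and was kept out of the grouping genes.

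The β-catenin list held 7 genes, of which 3 passed upward and none downward, with a median of 0.62, where 5.03% of all genes passed upward. They were the transcription factor genes *Lef1*, with 1 and 51 UMIs (log2 ratio 5.85, 3.31 to 11.2), and *Tcf7*, with 27 and 181 UMIs (2.92, 2.33 to 3.56), and the feedback inhibitor *Nkd1*, at 20.4 and 42.0 CPM (1.04, 0.83 to 1.25). *Lrp6* had 0.15 (-0.04 to 0.34) and *Axin2* 0.40 (0.03 to 0.78). The dermal papilla-like cells stood at 128 CPM for *Lef1*, 79.8 CPM for *Tcf7* and 182 CPM for *Nkd1*, and at 182 CPM for *Fzd2*. Over all *SM22-SmoM2* fibroblasts these genes stood at 4.09, 14.5, 42.0 and 127 CPM. The library ratios include this group, which has no control cell, and were not taken without it. Whether each of the 3 genes would pass 2-fold or keep 50 UMIs without these 46 cells was thus not tested.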

How the data were processed

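Tomato+ cells were captured with the 10x Chromium 3′ kit version 2. The deposited matrices hold UMI counts, not normalized, which the authors made with Cell Ranger on GRCm38 (mm10) from confidently mapped reads with valid barcodes. The Cell Ranger version, annotation and strand counted are not given in the sources used here. Counts are 1 per molecule at the 3′ end, so they were not divided by gene length. The barcode list covers the whole kit, so barcodes shared by the libraries were not counted.

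Cells with at least 200 genes and at most 10% mitochondrial UMIs were kept (22 control and 10 *SM22-SmoM2* cells removed). Cells were clustered by K-means (scikit-learn 1.9.0, best of 50 starts) in 20 principal components taken from 2000 variable genes (scanpy 1.11.5), into 20 clusters and, for fibroblasts alone, 15, and 82 listed genes (the 7 members, the pathway lists and the Hh genes) were left out. A class was named where 3 of its markers were raised, that is reached 10 CPM and 1.5 times their median over clusters. Clusters with more than 6 of the 12 dermal papilla markers raised were counted with the fibroblasts. The name dermal papilla-like needed more than 6 of these markers and at least 3 of the 5 Hh genes raised in a sub-cluster. Sub-clusters with at least 3 markers of another lineage among their 10 leading genes were left out as mixed, and cycling cells needed 3 of 5 cycling markers at 100 CPM and 3 times the median. These limits were chosen with the clusters in view. No doublets were removed. Levels are the summed UMIs of a gene over the total UMIs of the class in that library. Levels carry exact Poisson intervals, ratios exact conditional intervals and shares exact Clopper-Pearson intervals (scipy 1.17.1), all 95%. For 0 UMIs, 3 were put in and the ratio is only a bound, and no ratio was taken when both counts were 3 or fewer. Genes needed 50 UMIs over both groups to be counted as past 2-fold. The calculations were checked on simulated counts. The members and lists were chosen with earlier results of these data known. Named are all members and, per pathway list, the 3 most abundant genes (4 where 2 tied) and those past 2-fold with 50 UMIs. *Notum* is the third of its list. 1 gene of the effector list that the rule names is not reported here. For likeness the 5 highest correlations are named. The *Fzd2* and *Ptk7* values by *Ptch1* and the *Fzd2* values outside fibroblasts were added after values had been seen.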

Additional observations from a re-analysis of the deposited data

Results flagged for a closer look

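Some UMIs of the members fell in cells outside the 5 classes compared. In the control library, 15 keratinocyte-like cells, which the separation of epidermis and the sort should remove, held 16 *Wnt4* UMIs in 8 cells (54.6 CPM, 31.2 to 88.6) and 11 *Ryk* UMIs (37.5 CPM, 18.7 to 67.1). The *Wnt4* level lies above that of every class compared in the control library, beyond the overlap of intervals. The mixed fibroblast sub-clusters of the control library, 17 cells with markers of other lineages, held 8 *Wnt5a* UMIs (40.1 CPM, 17.3 to 79.0) and 9 *Ryk* UMIs (45.1 CPM, 20.6 to 85.6).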

How the results depend on the processing

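Each condition has 1 library, so no value here separates condition from library or animals. No paired analysis was possible because each condition has 1 library and no pairing is recorded. Scrublet marked 5 of 2856 control and 11 of 1792 *SM22-SmoM2* cells, too few to serve as a doublet check. Of 104 alternative values of the library ratios, 89 stayed within the interval reported, as did 100 of 108 of the *Ptch1* ratios in *SM22-SmoM2* and 102 of 110 in control, with the mitochondrial limits, Scrublet, K = 12, Leiden clustering, clustering with the reported genes and the mixed cells kept all inside it, although *Wnt4* in control fell under 2-fold with no mitochondrial filter (0.71) and with Leiden clustering (0.78). Shares of fibroblasts with a UMI moved with the thinning depth, 14 of 14 in control and 12 of 14 in *SM22-SmoM2*. *Wnt16* between libraries ranged from -2.49 to -1.23. The remaining values follow, as log2 ratios, and the cause was not tested except where cells were left out by construction. Between libraries, *Wnt5a* had 0.20 at 2500 UMIs per cell, 0.21 as a mean of per-cell CPM, -0.35 in female cells, -0.21 in sub-clusters with 50 cells of each library, and, added after the data had been seen, -0.12 without dermal papilla-like cells and -0.18 without the *Stmn4* sub-cluster. In female cells *Wnt4* had -0.94, *Ror1* 0.035 (direction turned) and *Ryk* -1.02. In the shared sub-clusters *Wnt11* had -1.28, *Wnt16* -1.23, *Ror1* 0.023 and *Ryk* 0.026 (both turned). Without the *Stmn4* sub-cluster *Wnt11* had 1.42 and *Wnt16* -1.53. With over without *Ptch1* in *SM22-SmoM2*, thinning gave *Wnt16* -1.65, *Ror1* -1.90 and *Ryk* -1.22, per-cell CPM gave *Ryk* -0.81, *Ptch1* read at 2500 UMIs gave *Wnt5a* 0.33, and female cells gave *Wnt5a* -1.58, *Ror2* 1.42 and *Ryk* -1.58. In control, thinning gave *Ror1* -0.62 (turned, from 1 UMI with *Ptch1*), *Ror2* -0.99 and *Ryk* 0.34, *Ptch1* read at 2500 UMIs gave *Ror2* -0.48 and *Ryk* -0.58, male cells gave *Wnt4* 0.18, and female cells gave *Wnt4* 2.47 and *Ryk* 0.28. The share of genes past 2-fold was 15.1% at 10 UMIs, 18.1% with 1 UMI in each library and 4.46% past a log2 ratio of 1.5. Female cells gave no value for 6 ratios and 2 *Ptch1* UMIs for 1.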

Other observations

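Fibroblasts with a *Wnt5a* UMI were set beside those without one. *Ror2*, its receptor, stood at 23.5 CPM in the 427 control cells with *Wnt5a* and 15.5 CPM in the 662 without, a log2 ratio of 0.60 (0.25 to 0.96). In *SM22-SmoM2* it stood at 24.9 and 20.2 CPM, a log2 ratio of 0.30 (-0.05 to 0.65). *Axin2*, a β-catenin target, was higher in cells with *Wnt5a* in both libraries, with log2 ratios of 0.77 (0.20 to 1.34) in control and 0.58 (0.06 to 1.09) in *SM22-SmoM2*. *Wnt2*, a ligand of the β-catenin branch, had -0.37 (-0.54 to -0.21) in control and 0.39 (-0.06 to 0.84) in *SM22-SmoM2*. Cells with *Wnt5a* were deeper, at a median of 14144 against 11231 UMIs in control and 12081 against 10223 UMIs in *SM22-SmoM2*, and the part of depth in these ratios was not tested.

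Among *SM22-SmoM2* muscle cells, the 25 with *Wnt5a* held 13 *Ptch1* UMIs and the 76 without held 4, a log2 ratio of 2.73 (1.03 to 4.80). These *Ptch1* UMIs lay in 7 cells, 1 of which held 8 of the 17, and the cells with *Wnt5a* were deeper, at a median of 5365 against 4383 UMIs, so the ratio rests on very few cells. In control muscle cells the *Ptch1* UMIs were 6 and 10, a log2 ratio of 0.13 (-1.62 to 1.73).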
